A study of Mus musculus with 13 samples.

Results

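The 10 genes described here encode the Toll-like receptors (TLRs) that recognise microbial lipids, proteins and nucleic acids, and the co-receptors that hand lipopolysaccharide (LPS) to TLR4. They are *Tlr1*, *Tlr2*, *Tlr4* and *Tlr6* at the cell surface, *Tlr3*, *Tlr7*, *Tlr9* and *Tlr13* in endosomes, and the co-receptor genes *Cd14* and *Ly96*. They were taken by name and not by a rule on their values, with earlier results of these data known. The count table held 24445 genes with a symbol, and each gene was represented by its RefSeq transcript with the highest total count. All 10 were found and all passed the filter on low counts, which kept 11942 genes. CD14 binds LPS and passes it to MD-2, the product of *Ly96*, which forms the LPS-binding complex with TLR4. In GRCm38, *Tlr1* (chr5:64924679-64933563) and *Tlr6* (chr5:64952031-64960097) lie next to each other on the minus strand, *Tlr7* (chrX:167304929-167330558) and *Tlr13* (chrX:106143204-106160493) lie on chromosome X, and the others lie on chromosomes of their own, such as *Tlr4* (chr4:66827584-66930284) and *Ly96* (chr1:16688051-16709611). TLR2 pairs with TLR1 for triacylated and with TLR6 for diacylated bacterial lipopeptides. TLR3 senses double-stranded RNA, TLR7 single-stranded RNA, TLR9 unmethylated CpG DNA and TLR13 a stretch of bacterial ribosomal RNA, each inside endosomes, where proteases cleave several of these receptors before they signal.

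RNA-seq was measured in bone marrow-derived macrophages (BMDMs), macrophages grown for a week from mouse marrow in medium conditioned by L929 fibroblasts. Control BMDMs came from C57Bl/6J mice with loxP sites around exon 9 of *Acly* (Acly fl/fl, labelled WT), and AclyM-KO BMDMs from such mice that also carry *Lyz2*-Cre, so that the gene of ATP citrate lyase is cut in myeloid cells. The groups were control and AclyM-KO after 3 h LPS, with 3 libraries each, control after 24 h LPS with 4 and AclyM-KO after 24 h LPS with 3. The labels give a replicate number but no animal or age, so p-values measure the spread between these libraries, which may be technical. Unstimulated cells were not analysed here, so that a difference between 24 h and 3 h says nothing of the level before LPS. Control 24 h replicate 1 held 34467 counts against 21274102 to 59577343 in the other 12 libraries and was left out of the fit. *Acly* was at 105 to 107 CPM in the control libraries and 37.7 to 46.2 in the AclyM-KO libraries after 3 h, and at 107 to 113 against 29.1 to 30.5 after 24 h. CPM are counts relative to a library's total after TMM normalization, on the usual common scale. The 7 macrophage markers summed to 4428 to 9202 CPM and were present in every group. *Lyz2*, the gene that drives the Cre, was lower in AclyM-KO libraries (log2 fold change -0.97 after 3 h and -1.40 after 24 h), and the other 6 markers summed to 3816 to 3981 against 3867 to 4067 CPM after 3 h and to 3545 to 3711 against 3484 to 3670 CPM after 24 h, control first. Marker lists of neutrophils, B cells, T cells, plasmacytoid and conventional dendritic cells and fibroblasts each summed to at most 13.6 CPM, and *Ly6g*, *Retnlg* and *Klk1* were at 0. The cells' RNA was pooled in each library, so fewer cells of a type and less RNA per cell cannot be told apart.

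The stretches before the transcription starts of 4 of these genes are shown because their RNA changed most with time among those whose promoter sequence was at hand. They are from RefSeq's GRCm38.p6 promoters, 5′ to 3′ on the gene's strand, trimmed to the bases outside annotated exons, with matches to the searched motifs in capitals. Promoter entries were found for 6 of the 10 genes, in 8 windows of 250 bases. Capitals mark the NF-kB motif (GGGNNTT followed by NCC) in *Tlr2*, GAGGAA (an ETS core as bound by PU.1) in *Tlr9*, *Tlr13* and *Tlr1*, and TGANTCA (AP-1) in *Tlr9*.
Tlr2, chr3:83841768-83841858, minus strand: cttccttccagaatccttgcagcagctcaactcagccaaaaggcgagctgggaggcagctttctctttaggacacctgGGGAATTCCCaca
Tlr9, chr9:106222348-106222597, plus strand: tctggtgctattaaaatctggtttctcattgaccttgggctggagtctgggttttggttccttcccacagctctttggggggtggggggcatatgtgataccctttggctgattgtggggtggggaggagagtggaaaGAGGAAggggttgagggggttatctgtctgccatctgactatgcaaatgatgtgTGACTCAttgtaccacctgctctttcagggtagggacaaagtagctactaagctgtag
Tlr13, chrX:106143025-106143203, plus strand: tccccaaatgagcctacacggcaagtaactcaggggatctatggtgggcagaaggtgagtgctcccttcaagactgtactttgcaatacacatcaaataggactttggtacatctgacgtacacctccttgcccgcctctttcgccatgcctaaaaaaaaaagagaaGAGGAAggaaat
Tlr1, chr5:64933564-64933808, minus strand: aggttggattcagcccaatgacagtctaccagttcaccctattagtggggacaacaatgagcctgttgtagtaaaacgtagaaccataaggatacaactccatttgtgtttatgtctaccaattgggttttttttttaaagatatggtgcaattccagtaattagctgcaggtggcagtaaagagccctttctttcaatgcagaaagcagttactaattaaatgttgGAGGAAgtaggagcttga
The NF-kB letters of *Tlr2* lay 172 to 163 bases before the RefSeq start and read the same on both strands. Both strands were searched throughout, and 4.11% of 32851 mouse promoter windows of the same length held this motif. The AP-1 letters of *Tlr9* lay 58 to 52 bases before its start, a motif held by 6.75% of the windows. The ETS core, which 23.3% of the windows held, was in the windows shown of *Tlr9*, *Tlr13* and *Tlr1* and in none of those of *Tlr2*, *Tlr3* and *Tlr6*. Of the windows not shown, that of *Tlr3* held the NF-kB motif and TTGCNNAA (C/EBP, 9.56% of windows), and one of *Tlr6* held C/EBP and a pair of overlapping matches to the interferon-stimulated response element (GAAANN followed by GAAA, 2.98%). The cyclic AMP response element TGACGTCA, found in 1.55% of windows, matched in none of the 8. A match is a run of letters and not a measured binding site.

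**Figure D1:**
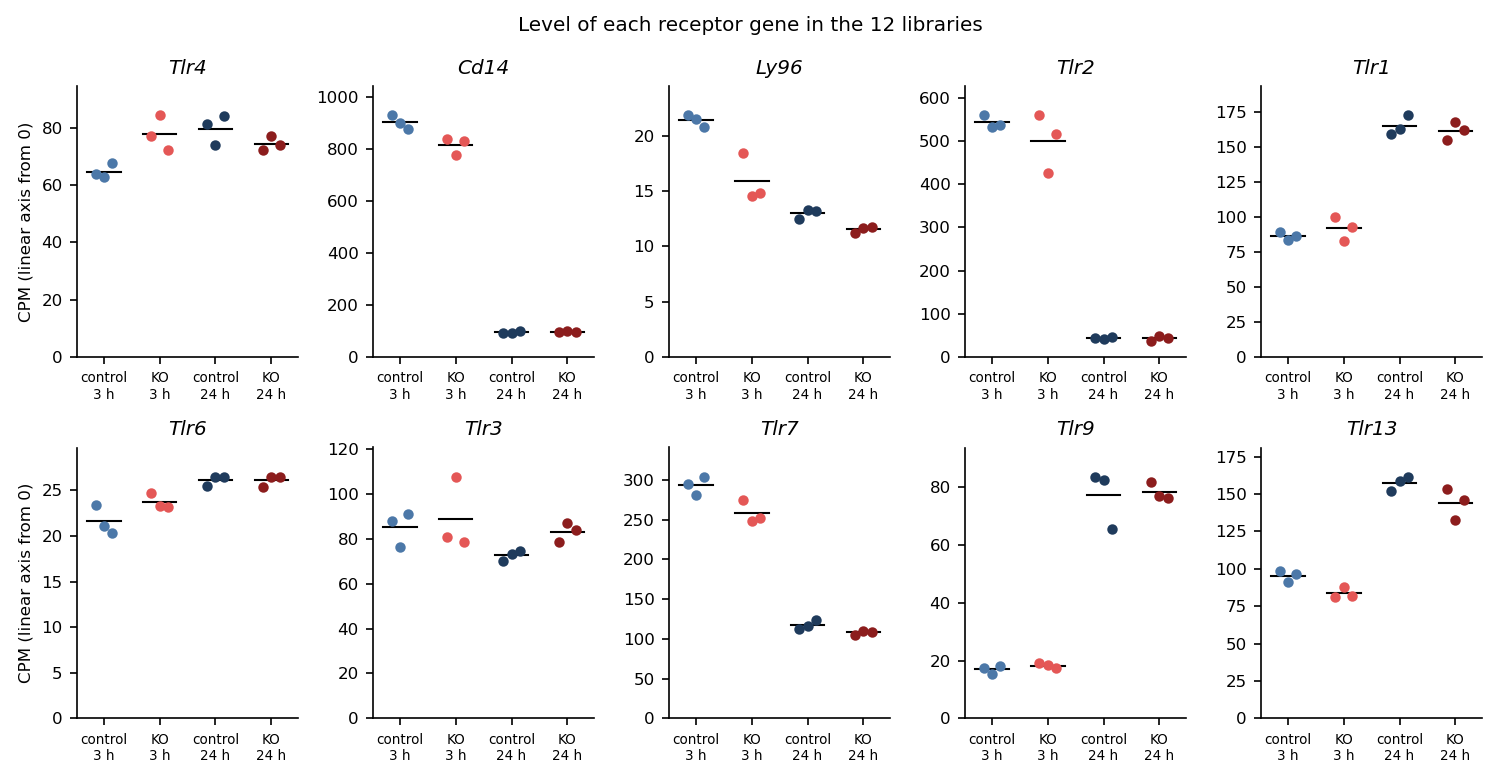
Level of each of the 10 genes in CPM (linear axis from 0) in the 12 libraries; points are libraries, horizontal lines group means, and KO is AclyM-KO. *Cd14* and *Tlr2* stand far above their 24 h levels in all 6 libraries after 3 h, *Tlr9* far below, and control and AclyM-KO points lie close together in most panels.

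Between 3 h and 24 h of LPS, the members of the LPS receptor complex took different courses. *Cd14* was at 931, 901 and 879 CPM in the control libraries after 3 h and at 89.9, 93.6 and 101 after 24 h. In AclyM-KO libraries it was at 840.5, 775 and 830.1 CPM after 3 h and at 97.4, 97.8 and 95.02 after 24 h. No 24 h library came near a 3 h library. The level fell 9.52-fold in control cells (log2 fold change -3.25 with a standard error, SE, of 0.05; adjusted p = 5.75e-30 by the quasi-likelihood test of edgeR, used throughout) and 8.43-fold in AclyM-KO cells (-3.07, SE 0.05, adjusted p = 2.43e-29, edgeR). *Ly96* was at 21.9, 21.6 and 20.8 CPM in control cells after 3 h and at 12.5, 13.3 and 13.2 after 24 h. The AclyM-KO libraries had 18.4, 14.5 and 14.9 CPM of *Ly96* after 3 h and 11.2, 11.7 and 11.8 after 24 h. All 24 h libraries were thus lower, by -0.72 on the log2 scale in control cells (adjusted p = 6.87e-09, edgeR) and by -0.46 in AclyM-KO cells (adjusted p = 3.60e-05, edgeR), in both under the fold threshold of 0.75 that the study applied. *Tlr4*, the signalling receptor itself, was at 63.7, 62.7 and 67.5 CPM after 3 h and at 81.2, 73.8 and 83.9 after 24 h in control cells. Its AclyM-KO libraries had 77.0, 84.4 and 72.1 CPM after 3 h and 72.2, 77.0 and 74.1 after 24 h. *Tlr4* was thus higher after 24 h in control cells without overlap (log2 fold change 0.30, SE 0.06, adjusted p = 5.51e-05, edgeR), whereas its AclyM-KO libraries overlapped (-0.07, 95% confidence interval -0.19 to 0.06, adjusted p = 0.334, edgeR).

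The lipopeptide receptors also diverged. *Tlr2* was at 561, 534 and 539 CPM in control libraries after 3 h and at 44.4, 42.2 and 45.2 after 24 h. In AclyM-KO libraries *Tlr2* was at 559.8, 426 and 517 CPM and then at 36.2, 48.4 and 43.6. It had the largest fold change of the 10 genes, 12.4-fold lower after 24 h in control cells (log2 fold change -3.63, SE 0.11, adjusted p = 1.90e-11, edgeR) and 11.7-fold lower in AclyM-KO cells (-3.55, SE 0.12, adjusted p = 2.43e-11, edgeR). *Tlr1*, the partner for triacylated lipopeptides, moved the other way. Its control libraries had 89.4, 83.7 and 86.7 CPM after 3 h and 159, 163 and 173 after 24 h, and its AclyM-KO libraries 99.996, 83.0 and 93.1 and then 155, 168 and 163. All 24 h libraries were above all 3 h libraries, with log2 fold changes of 0.93 (SE 0.06, adjusted p = 4.54e-15, edgeR) in control and 0.82 (SE 0.06, adjusted p = 1.14e-13, edgeR) in AclyM-KO cells. Without AclyM-KO 3 h replicate 2 the AclyM-KO value was 0.73, under the fold threshold. *Tlr6* lay between 20.3 and 26.5 CPM in all 12 libraries, with log2 fold changes of 0.28 in control cells (adjusted p = 9.59e-04, edgeR) and 0.14 in AclyM-KO cells (adjusted p = 0.0772, edgeR). Of the 50-base stretches of the *Tlr1* transcript, 15.3% are also in *Tlr6*, so reads there could count for either gene. No other pair among the TLR genes and co-receptors shared any such stretch.

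Of the endosomal receptors, *Tlr7* was lower and *Tlr9* higher after 24 h. *Tlr7*, on chromosome X, was at 295, 281 and 304 CPM in control cells after 3 h and at 113, 116 and 124 after 24 h. Its AclyM-KO libraries had 274, 249 and 253 CPM and then 105, 110.4 and 109, again without overlap. It fell 2.495-fold in control cells (log2 fold change -1.32, SE 0.05, adjusted p = 4.14e-20, edgeR) and 2.39-fold in AclyM-KO cells (-1.26, SE 0.05, adjusted p = 1.66e-19, edgeR). *Tlr9* was at 17.4, 15.4 and 18.001 CPM in control cells after 3 h and at 83.8, 82.5 and 65.7 after 24 h. In AclyM-KO cells *Tlr9* was at 19.2, 18.5 and 17.3 CPM and then at 82.0, 76.9 and 76.2. The lowest 24 h library, control replicate 4, which was the deepest, was far above the highest 3 h library in either genotype. *Tlr9* rose by a log2 fold change of 2.19 in control (SE 0.08, adjusted p = 4.08e-18, edgeR) and 2.10 in AclyM-KO cells (SE 0.08, adjusted p = 8.28e-18, edgeR).

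The bacterial RNA receptor gene *Tlr13* was at 98.3, 91.2 and 96.6 CPM after 3 h and 152, 159 and 162 after 24 h in control cells, and at 81.3, 88.0 and 81.9 and then 153, 132 and 146 in AclyM-KO cells. Its log2 fold change was 0.72 in control cells (SE 0.06, adjusted p = 6.45e-13, edgeR) and 0.78 in AclyM-KO cells (SE 0.06, adjusted p = 1.38e-13, edgeR). Only the second passed the fold threshold of 0.75, and the difference between the genotypes was 0.06 (95% confidence interval -0.11 to 0.22, adjusted p = 0.735, edgeR). *Tlr3* was the least changed endosomal receptor. Its control libraries had 88.1, 76.2 and 91.1 CPM after 3 h and 70.3, 73.1 and 74.7 after 24 h, and its AclyM-KO libraries 80.8, 108 and 78.6 and then 78.7, 87.0 and 83.9. The *Tlr3* log2 fold change was -0.23 in control cells (adjusted p = 0.0708, edgeR) and -0.10 in AclyM-KO cells (adjusted p = 0.407, edgeR). An antisense gene, *Gm45542*, overlaps exons of *Tlr3* and is not in the count table, and the strand setting of the counting is not stated, so *Tlr3* counts could hold antisense reads.

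Counted over the 10 genes, 5 passed both thresholds of the study (adjusted p under 0.05 and a log2 fold change beyond 0.75) between 24 h and 3 h in control cells, against 40.4% of all genes tested. The higher ones were *Tlr1* and *Tlr9* (background 20.9%) and the lower ones *Tlr2*, *Cd14* and *Tlr7* (background 19.5%). In AclyM-KO cells 6 passed, the same 5 and *Tlr13*, against 42.0% of all genes. By adjusted p alone, 9 of 10 passed in control cells (background 74.9%) and 7 of 10 in AclyM-KO cells (background 75.7%). The libraries of the 2 times did not overlap for 10 of 10 genes in control cells (background 77.5%) and for 8 of 10 in AclyM-KO cells (background 76.8%). The number of changed genes was thus near that of genes at large, and the median absolute log2 fold change was 0.83 in control and 0.80 in AclyM-KO cells against 0.60 and 0.63 over all genes. With total counts in place of TMM, log2 fold changes between the times were 0.27 higher in control and 0.24 higher in AclyM-KO cells at the median of all genes. With control 24 h replicate 1 back in the fit, *Tlr2* was at -3.61, *Cd14* at -3.21, *Tlr7* at -1.31, *Tlr9* at 2.18 and *Tlr1* at 0.93 in control cells. Under scaling by total counts *Tlr3* was at 0.05 and 0.14, and *Tlr4* in AclyM-KO cells at 0.18.

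**Figure D2:**
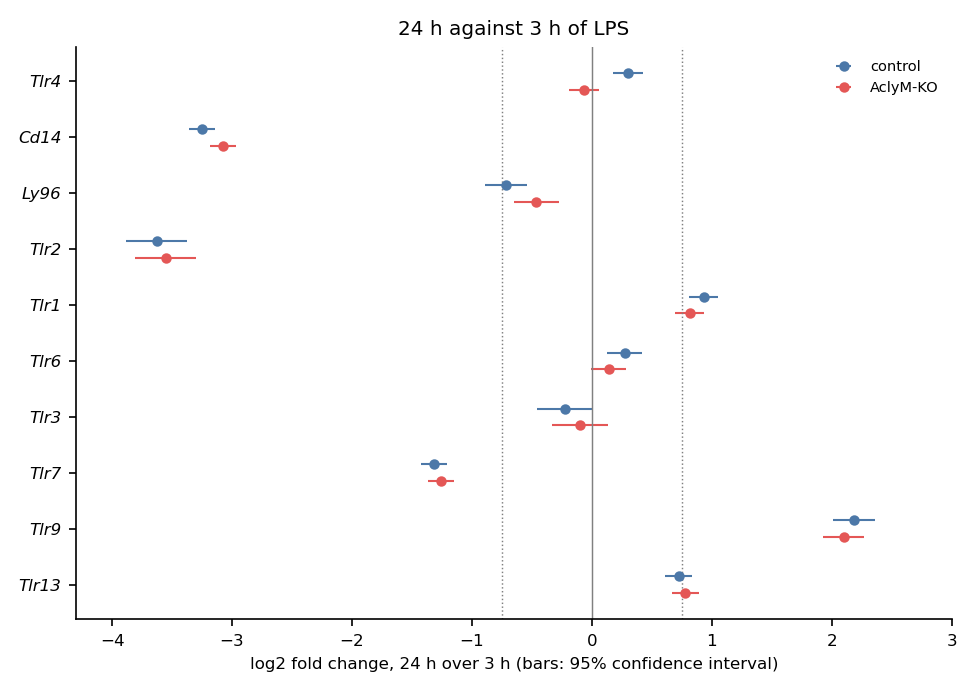
Log2 fold change of each gene between 24 h and 3 h of LPS in control and AclyM-KO cells (x axis), with 95% confidence intervals as bars and dotted lines at 0.75 in either direction. *Tlr2* (-3.63 and -3.55) and *Cd14* (-3.25 and -3.07) lie far to the left and *Tlr9* (2.19 and 2.10) to the right, and the intervals of *Tlr4* do not overlap between the genotypes.

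The median absolute log2 fold change of the 10 genes between genotypes was 0.14 after 3 h and 0.07 after 24 h, against 0.15 and 0.13 over all genes. After 3 h LPS, 0 of the 10 genes passed both thresholds, against 2.01% of all genes. By adjusted p alone, 5 of 10 passed (background 15.4%), 1 of them higher (background 8.52%) and 4 lower (background 6.92%), and 3339 of all genes and the same 5 had an unadjusted p under 0.05. *Tlr4* was higher in AclyM-KO cells (77.8 ± 6.20 against 64.6 ± 2.54 CPM, SD, n = 3 each), with a log2 fold change of 0.27 (SE 0.06, adjusted p = 0.00318, edgeR). Its co-receptors were lower. *Ly96* had the largest difference of the 10, at 15.9 ± 2.17 against 21.4 ± 0.54 CPM (SD, n = 3 each), a log2 fold change of -0.43 (SE 0.09, adjusted p = 7.83e-04, edgeR). *Cd14* was at 815 ± 34.9 against 904 ± 26.4 CPM (log2 fold change -0.15, SE 0.05, adjusted p = 0.0371, edgeR). Among the endosomal receptors, *Tlr7* was at 259 ± 13.8 against 293 ± 11.5 CPM (log2 fold change -0.18, adjusted p = 0.0146, edgeR) and *Tlr13* at 83.8 ± 3.72 against 95.4 ± 3.68 CPM (-0.19, adjusted p = 0.0254, edgeR). The AclyM-KO and control libraries of these 5 genes did not overlap, as was the case for 30.1% of all genes. *Ly96* and *Tlr4* stayed under an adjusted p of 0.05 in all 16 alternatives that were computed. The other 3 did not. *Tlr7* did so in 13 of 16, *Tlr13* in 12 and *Cd14* in 9, and among the alternatives that lose *Cd14* is the fit of all 13 libraries (adjusted p = 0.596, edgeR). Without control 3 h replicate 1, control 3 h replicate 3 or AclyM-KO 3 h replicate 3 the count over the 10 genes was 2. The share over all genes in those fits is not given.

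The remaining 5 genes overlapped between the genotypes after 3 h. Their log2 fold changes were 0.09 for *Tlr1*, -0.12 for *Tlr2*, 0.13 for *Tlr6*, 0.07 for *Tlr3* and 0.11 for *Tlr9*. The 95% confidence intervals of all 10 genes lay between -0.61 and 0.40, so a change beyond 0.75 in either direction lay outside every interval. AclyM-KO 3 h replicate 2 stood apart from the other AclyM-KO 3 h libraries, with the lowest *Tlr2* (426 CPM) and the highest *Tlr3* (108 CPM) of that group. Without it, *Tlr3* was at -0.09 in place of 0.07 after 3 h. In the same comparison the macrophage markers *Adgre1* (log2 fold change 0.24), *Mertk* (-0.31) and *Fcgr1* (-0.26) had adjusted p-values of 7.17e-04, 4.10e-04 and 0.00284 from edgeR, and their part in the receptor values was not tested.

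After 24 h LPS, 0 of the 10 genes passed both thresholds (background 1.38%), and 0 passed by adjusted p alone with edgeR (background 13.9%). *Tlr7* and *Tlr13* had an unadjusted p under 0.05, as did 3143 of all genes. *Tlr7* was at 108 ± 2.79 CPM in AclyM-KO and 117 ± 5.61 in control cells (SD, n = 3 each), a log2 fold change of -0.12 (adjusted p = 0.126, edgeR). *Tlr13* was at 144 ± 10.7 against 157 ± 4.92 CPM (-0.13, adjusted p = 0.116, edgeR). *Tlr3* had the largest difference, at 83.2 ± 4.17 against 72.7 ± 2.25 CPM (0.19, adjusted p = 0.273, edgeR). *Ly96* was at 11.5 ± 0.31 against 13.01 ± 0.44 CPM (-0.18, adjusted p = 0.202, edgeR). The libraries of *Tlr3*, *Tlr7* and *Ly96* did not overlap between the genotypes (3 of 10, background 33.0%). *Cd14* (0.03), *Tlr1* (-0.03), *Tlr2* (-0.04), *Tlr6* (-0.00) and *Tlr9* (0.03) differed by less than 0.05 on the log2 scale, and *Tlr4* by -0.10. The 95% confidence intervals of the 10 genes lay between -0.36 and 0.42. Fitted on the 24 h libraries alone, 3 of the 10 (*Tlr3*, *Tlr7* and *Tlr13*) had an adjusted p under 0.05 with edgeR. The share over all genes in that fit is not given, so this count has no background.

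**Figure D3:**
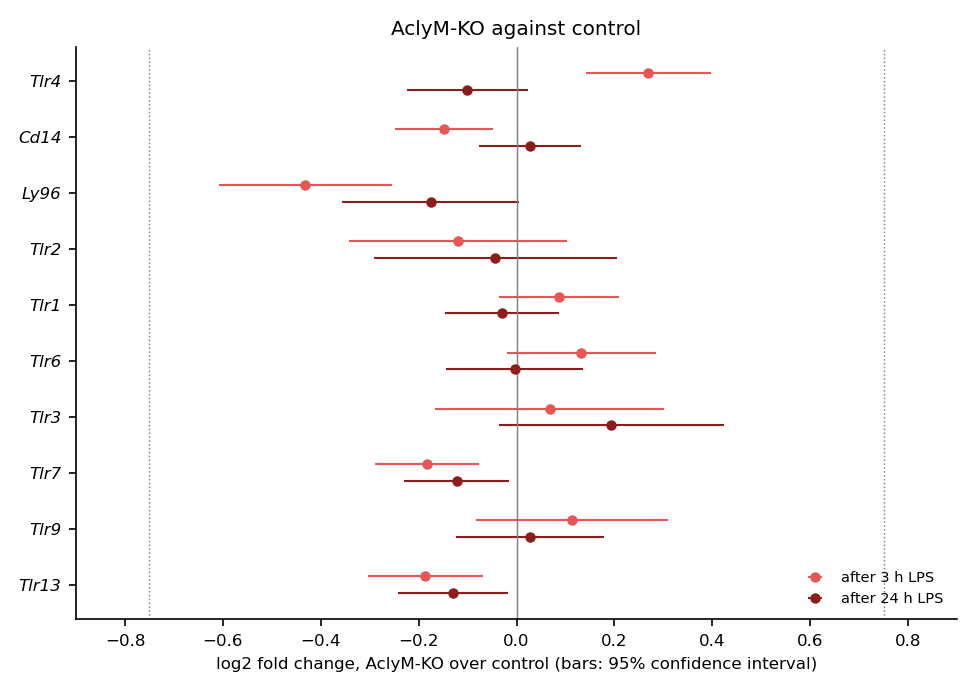
Log2 fold change of each gene in AclyM-KO over control cells (x axis) after 3 h and 24 h LPS, with 95% confidence intervals as bars and dotted lines at 0.75 in either direction. Every interval lies between the dotted lines; after 3 h *Tlr4* (0.27) lies to the right of 0 and *Ly96* (-0.43), *Tlr7*, *Tlr13* and *Cd14* to the left.

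Whether the genotype difference depended on the time of LPS was tested with an interaction term. *Tlr4* was the 1 gene of the 10 that passed (background 9.59%), with a log2 value of -0.37 (SE 0.09, 95% confidence interval -0.55 to -0.19, adjusted p = 0.00556, edgeR). It was -0.42 to -0.31 over the 21 alternatives, with adjusted p-values of 2.66e-04 to 0.0358, and at 0.0167 with all 13 libraries. The value restates that *Tlr4* was higher in AclyM-KO than in control cells after 3 h and not after 24 h. It likewise restates that *Tlr4* was higher after 24 h than after 3 h in control cells and not in AclyM-KO cells. All of these share the same 12 libraries. Scaling by total counts raised the AclyM-KO time differences of all genes by 0.24 at the median. *Tlr4* was then also higher after 24 h in AclyM-KO cells (0.18, adjusted p = 0.00872, edgeR). *Cd14* (0.18, adjusted p = 0.117) and *Ly96* (0.26, adjusted p = 0.207) did not pass with edgeR, although their unadjusted p-values were 0.0186 and 0.0477. *Tlr3* (0.13, adjusted p = 0.688, edgeR) passed at 0.27 without AclyM-KO 3 h replicate 2 (adjusted p = 0.0295). The other 6 genes lay between -0.14 and 0.08.

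Because longer transcripts collect more counts, levels of different genes were compared as CPM per kilobase of transcript. In control cells after 3 h, the order was *Cd14* (551), *Tlr2* (181), *Tlr7* (75.3), *Ly96* (33.9), *Tlr1* (28.6), *Tlr13* (23.5), *Tlr3* (19.3), *Tlr4* (15.9), *Tlr6* (5.88) and *Tlr9* (4.87 CPM per kilobase), and no neighbours in this order overlapped. After 24 h, the control order was *Cd14* (57.7), *Tlr1* (54.6), *Tlr13* (38.8), *Tlr7* (30.1), *Tlr9* (22.2), *Ly96* (20.6), *Tlr4* (19.5), *Tlr3* (16.5), *Tlr2* (14.6) and *Tlr6* (7.11). There, *Cd14* overlapped with *Tlr1*, and *Tlr9*, *Ly96* and *Tlr4* overlapped with their neighbours. *Tlr2* thus went from the second place to the ninth by this length, and *Tlr9* from the tenth to the fifth. AclyM-KO cells had the same 3 genes on top at 3 h and the same 5 at 24 h. At 3 h *Tlr1* (30.4) stood above *Ly96* (25.2), which overlapped, as did *Tlr13* (20.6), *Tlr3* (20.2) and *Tlr4* (19.1). Some places depend on the length used. *Ly96* was given the length of a 632-base transcript, and the gene's exons together span 1021 bases. With the length of all exons for every gene, *Ly96* was sixth in control cells at 3 h and ninth at 24 h, and *Tlr2* was sixth in control and the seventh in AclyM-KO cells at 24 h.

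**Figure D4:**
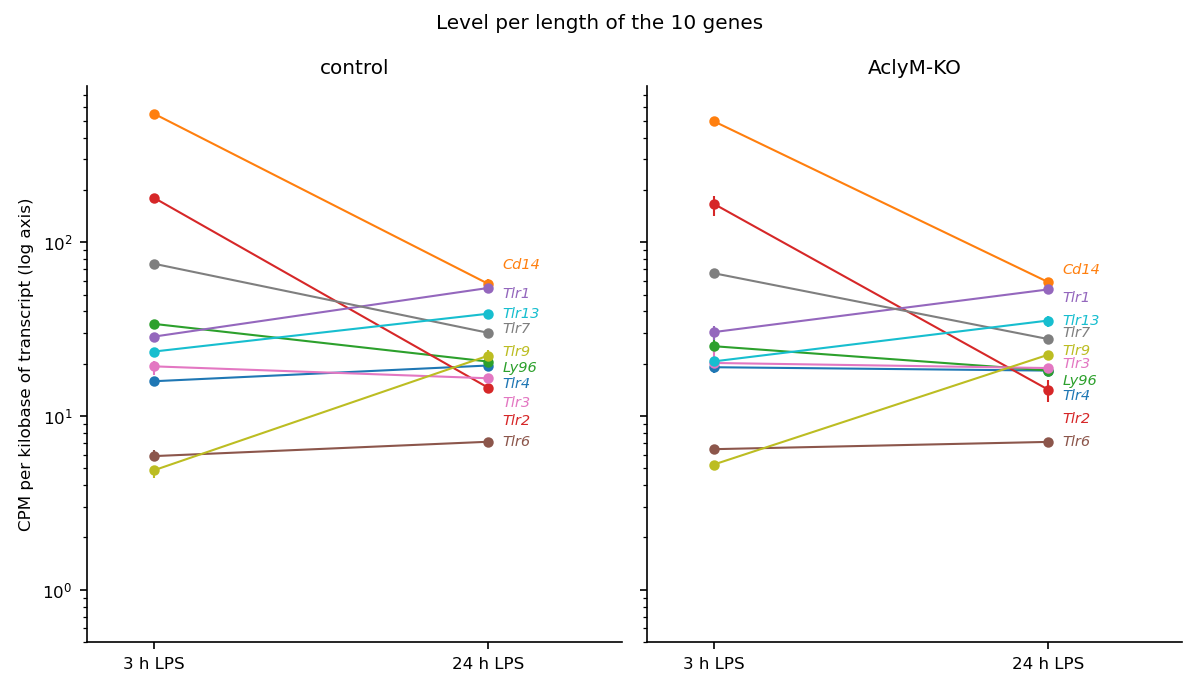
Level per length of the 10 genes after 3 h and 24 h LPS in control (left) and AclyM-KO cells (right), as CPM per kilobase on a log axis; points are means of 3 libraries and bars run from the lowest to the highest. *Tlr2* crosses from 181 to 14.6 and *Tlr9* from 4.87 to 22.2 CPM per kilobase in control cells, while *Tlr4*, *Tlr3* and *Tlr6* stay nearly level.

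The pairs that work together changed their proportions accordingly, on the same scale per kilobase. The ratio of *Tlr2* to its partner *Tlr1* was 6.31 ± 0.08 in control and 5.45 ± 0.25 in AclyM-KO cells after 3 h, and 0.27 ± 0.01 and 0.26 ± 0.03 after 24 h (SD, n = 3 each). *Tlr2* to *Tlr6* went from 30.8 ± 1.60 to 2.05 ± 0.10 in control cells and from 25.8 ± 2.96 to 1.99 ± 0.25 in AclyM-KO cells. *Cd14* to *Tlr4* went from 34.8 ± 2.14 to 2.96 ± 0.20 in control and from 26.2 ± 3.00 to 3.23 ± 0.11 in AclyM-KO cells. The ratio of *Ly96* to *Tlr4* was 2.14 ± 0.13 in control and 1.33 ± 0.22 in AclyM-KO cells after 3 h and 1.06 ± 0.09 and 1.00 ± 0.02 after 24 h. After 3 h the libraries of the genotypes did not overlap for any of these 4 ratios. For *Ly96* to *Tlr4* the control libraries had 1.99 to 2.22 and the AclyM-KO libraries 1.11 to 1.54. Of the other ratios computed, *Tlr7* to *Tlr9* and *Tlr2* to *Tlr4* did not overlap either, and *Tlr1* to *Tlr6* did. *Tlr1*, *Tlr2* and *Tlr6* each overlapped when taken singly. Among single genes 30.1% did not overlap, and a share over ratios is not given, so no genotype difference is read from the ratios. Shares were taken of the summed level of *Tlr3*, *Tlr7*, *Tlr9* and *Tlr13*, the 4 endosomal receptors among the genes described here. The sum leaves out the TLR gene *Tlr8*, which was at means of 196 and 76.9 CPM in control cells after 3 h and 24 h. Shares with *Tlr8* included were not computed, and each share given here would be lower with it. In control cells *Tlr7* made up 61.3% ± 0.72 of the sum after 3 h and 28.0% ± 1.34 after 24 h. The share of *Tlr13* went from 19.1% ± 0.42 to 36.0% ± 0.96, that of *Tlr9* from 3.95% ± 0.13 to 20.7% ± 2.68, and that of *Tlr3* was 15.7% ± 0.72 and 15.3% ± 0.41. In AclyM-KO cells *Tlr7* made up 59.0% ± 3.26 and 26.5% ± 1.10 and *Tlr9* 4.68% ± 0.13 and 21.5% ± 0.65.

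The genes whose levels followed *Tlr4* most closely over the 12 libraries were *Gsap* (Pearson's r = 0.93), *Map11* (r = 0.91) and *Rgs1* (r = 0.90). Those closest to *Ly96*, the gene with the largest genotype difference, were *Cd300a* (r = 0.98), *Scarb2* (r = 0.98) and *Arl5c* (r = 0.97). These are descriptions of log2 CPM over libraries that fall into 4 groups, and most of the spread of *Ly96* lies between the times. *Map11* had a log2 fold change of 0.37 in AclyM-KO cells after 3 h and -0.09 after 24 h, and *Rgs1* of 0.34 and -0.08, beside 0.27 and -0.10 for *Tlr4*.

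Around the receptors, a list of 62 other genes of TLR signalling was read, of which 57 were tested. *Tlr8*, which neighbours *Tlr7* on chromosome X, was the 1 other TLR gene with enough counts. *Tlr5*, *Tlr11* and *Tlr12* had at most 13, 9 and 2 counts in any library of the fit. *Tlr8* was at 187 to 205 CPM in control and 165 to 180 in AclyM-KO cells after 3 h, and at 74.3 to 80.8 and 53.0 to 62.5 after 24 h. It did not overlap between the genotypes at either time, with log2 fold changes of -0.20 (adjusted p = 0.0174) and -0.42 (SE 0.06, adjusted p = 7.31e-06, edgeR), and it fell with time by 1.35 in control and 1.57 in AclyM-KO cells on the log2 scale. Between genotypes, 2 of the 57 passed both thresholds after 3 h (2.01% of all genes) and 1 after 24 h (1.38% of all genes). By adjusted p alone, 14 of the 57 passed after 3 h (15.4% of all genes) and 21 after 24 h (13.9% of all genes). *Lbp*, whose product carries LPS to CD14, was lower in AclyM-KO cells at both times. It had 58, 55 and 64 counts in control and 19, 22 and 27 in AclyM-KO libraries after 3 h (log2 fold change -1.41, SE 0.23, adjusted p = 5.70e-05, edgeR), and 25, 27 and 67 against 15, 10 and 12 after 24 h (-1.14, SE 0.28, adjusted p = 0.00521, edgeR). The 67 counts were in control 24 h replicate 4, the deepest library, where they were 1.02 CPM against 1.02 and 1.15 in the other controls. *Ctsk*, the gene of a cathepsin implicated in endosomal receptor processing, was higher after 3 h (5.43 ± 0.99 against 2.02 ± 0.38 CPM, log2 fold change 1.43, SE 0.21, adjusted p = 1.22e-05, edgeR) and at -0.02 after 24 h.

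With time, 23 of the 57 genes passed both thresholds in control cells and 24 in AclyM-KO cells, shares like those of all genes (40.4% and 42.0%). In control cells 6 were higher and 17 lower, beside 20.9% and 19.5% of all genes. The adaptor gene *Myd88*, which serves all of these TLRs but TLR3, was lower (log2 fold change -1.13 in control and -1.15 in AclyM-KO cells). *Ticam1*, the adaptor gene of TLR3 and of endosomal TLR4 signalling, was higher (0.77 in control and 1.22 in AclyM-KO cells). In the interaction test 8 of the 57 passed (9.59% of all genes), with positive values for *Ly86*, *Tirap*, *Ticam1* (0.45, adjusted p = 0.0254, edgeR), *Traf6*, *Tab3* and *Ap3b1* and negative ones for *Unc93b1* and *Ctsk*. The largest were those of *Ctsk* (-1.45, adjusted p = 0.00112, edgeR), *Tirap* (0.62, adjusted p = 0.00184, edgeR) and *Tab3* (0.54, adjusted p = 0.00305, edgeR). The number that passed was not stable. It was 4 to 14 with 1 library left out at a time, 5 with all 13 libraries and 13 of 62 without the filter on low counts. The shares over all genes in these fits are not given. *Tab2*, the gene of an adaptor of the TAK1 kinase, was the kinase-group gene with the largest change with time, at a log2 fold change of -1.66 in control and -1.55 in AclyM-KO cells. *Irf7*, an interferon regulatory factor downstream of TLR7 and TLR9, was higher by 2.17 and 1.78. The endosomal protease gene *Ctsl* was at -1.05 in control and -0.80 in AclyM-KO cells. The nuclease gene *Rnaset2a*, which has a near-identical copy in *Rnaset2b*, was higher by 1.03 in control and 1.32 in AclyM-KO cells. The scavenger receptor gene *Cd36* was at -1.14 and -1.53, and *Lbp* at -1.44 and -1.17. None of the 9 genes of receptor folding and trafficking passed both thresholds in either genotype (40.4% and 42.0% of all genes). *Cnpy3* was just under the fold threshold in control cells, at 0.749. By adjusted p alone, 5 of the 9 passed in control cells (74.9% of all genes) and 6 in AclyM-KO cells (75.7% of all genes). Of the 10 restraint genes, 6 were lower in control cells (19.5% of all genes) and 0 higher (20.9% of all genes). In AclyM-KO cells 5 passed, all of them lower (42.0% of all genes in either direction). The 6 include *Il1rl1* and *Sigirr*, genes of few counts. *Sigirr* was at means of 0.92 and 0.56 CPM in control cells after 3 h and 24 h. *Il1rl1*, a receptor gene listed in the restraint group, had 8 to 18 counts in control and 17 to 40 in AclyM-KO libraries after 3 h. After 24 h it had 0 or 1 in every library of the fit, too few for a fold.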

How the data were processed

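The authors built strand-specific mRNA libraries, mapped the reads to mm10 (STAR 2.5.2b), processed the alignments in SAMtools and counted tags on RefSeq transcripts by HOMER. The file they deposited holds raw counts, whole numbers with no normalization, for 35745 transcripts in 13 libraries. The strand and isoform settings of the counting and the treatment of reads with several matches are not given in the sources used here. The number of columns left unused was 0. Of the transcripts, 35628 were given symbols from RefSeq and GENCODE tables of GRCm38. Those without a symbol took 1.13% of counts.

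The 12 libraries with at least 21274102 counts were fitted with edgeR 4.0.16 in R 4.3.3 (TMM, filterByExpr, robust quasi-likelihood test, 4 groups, 19621 transcripts), with the Benjamini-Hochberg adjustment across all transcripts. A gene was called at an adjusted p under 0.05 and a log2 fold change beyond 0.75, an interaction at the adjusted p alone. SEs and 95% confidence intervals come from the F statistic. The fit was tested on simulated data. Alternatives were DESeq2 1.42.0, other scalings, filters, rows and libraries, and a replicate block. Motifs were searched in the 250 bases before RefSeq starts. The genes, lists and rules were chosen with earlier results of these data known. All 10 genes are named, with *Acly*, the pathway genes called between genotypes or with the largest called change with time in their role, and the 3 genes most correlated with *Tlr4* and with *Ly96*. *Lyz2*, *Adgre1*, *Mertk*, *Fcgr1*, *Tlr8*, *Gm45542*, *Tirap*, *Tab3*, *Traf6*, *Ap3b1*, *Unc93b1*, *Sigirr* and the untested TLR genes were named after their values were seen. So were *Irak3* and *Cnpy3*.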

Additional observations from a re-analysis of the deposited data

Results flagged for a closer look

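In the control 24 h group, replicate 1 lay far from the other 3 libraries for 8 of the 10 genes, by the gap between it and its nearest neighbour relative to the range of the group. Such a test flags about 1 in 20 groups by chance where all libraries are equally noisy. Replicate 1, with 34467 counts against at least 21274102, is far noisier, so the 8 of 10 cannot be set against that rate. In the fit of all 13 libraries it had 583 CPM of *Cd14*, 291 of *Tlr2*, 202 of *Tlr7*, 134 of *Tlr3*, 67.2 of *Tlr1*, 22.4 of *Tlr4* and 0 of *Tlr6* and *Ly96*. A single count stood for 22.4 CPM there, so these rest on 26, 13, 9, 6, 3, 1, 0 and 0 counts. At the mean level of the other control 24 h libraries, *Cd14* would have given 4.23 counts, and at the mean of the control 3 h libraries 40.3. The exact 95% Poisson interval of the 26 counts, which covers counting error only, was 16.98 to 38.1. For *Tlr2*, 13 counts (6.92 to 22.2) stood against 1.96 and 24.3, and for *Tlr7*, 9 counts (4.12 to 17.1) against 5.24 and 13.1. Over the 10 genes, 66 counts (51.0 to 84.0) stood against 37.8 and 95.2. For *Tlr6* and *Ly96*, 0 counts allow up to 3.69, above what either group would give. The 2 and 6 counts of *Tlr9* and *Tlr13* were not far from the others by the same test.

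The genotype difference of *Tlr4* differed between 3 h and 24 h of LPS, with an interaction of -0.37 on the log2 scale (adjusted p = 0.00556, edgeR's quasi-likelihood test). All 3 AclyM-KO libraries were above all 3 controls after 3 h, and the libraries overlapped after 24 h.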

How the results depend on the processing

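Leaving out 1 library at a time left 2 to 4 of the 10 genes with an adjusted p under 0.05 between genotypes after 3 h, and 1 or 2 in the interaction test, where *Cd14* (0.22, adjusted p = 0.0448, without control 24 h replicate 4), *Ly96* (0.36, adjusted p = 0.0434, without AclyM-KO 3 h replicate 1) or *Tlr3* (0.27, without AclyM-KO 3 h replicate 2) joined *Tlr4*. The shares over all genes in these fits are not given. In the main fit they were 15.4% after 3 h and 9.59% in the interaction test. Without a fold threshold, 5 genes were called after 3 h (15.4% of all genes). Between the times in control cells it was 9 (74.9% of all genes). Fitted on the compared groups alone, 3 (*Tlr3*, *Tlr7* and *Tlr13*) had an adjusted p under 0.05 after 24 h, without a share over all genes beside it. Directions turned only for small values. Over the libraries left out, the genotype difference after 24 h ran from -0.057 to 0.0063 for *Tlr1*, -0.14 to 0.065 for *Tlr2*, -0.022 to 0.017 for *Tlr6*, -0.0086 to 0.076 for *Cd14* and -0.086 to 0.089 for *Tlr9*. That of *Tlr3* after 3 h ran from -0.091 to 0.15, the interaction of *Tlr2* from -0.044 to 0.19 and the time difference of *Tlr3* in AclyM-KO cells from -0.18 to 0.044. With all 13 libraries *Cd14* was at -0.0086 after 24 h. With total counts, time differences were 0.050 and 0.14 for *Tlr3* (control, AclyM-KO), and *Tlr13* in control cells reached 1.00. That of *Tlr4* in AclyM-KO cells was 0.18 and passed by adjusted p (0.00872, edgeR). The causes were not tested.

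Same-numbered replicates deviated from their group means with correlations of -0.03 to 0.07, and differently numbered ones with -0.07 to 0.08. Between AclyM-KO 3 h and 24 h, same-numbered libraries were at 0.03 to 0.05 and the others at -0.04 to -0.01. The labels do not say whether equal numbers mean a shared origin, so these values cannot decide on pairing. The main fit used no pairs. With the number as a replicate block, *Tlr9* was at -0.12 after 24 h, and no other of the 50 values changed its call or direction. Control 24 h replicate 4 was the only library with its number. The block thus took this library out of the comparisons and cannot decide on pairing either. Control 24 h replicate 1 limits what its own values can show, at 22.4 CPM a count.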
